A study of Danio rerio with 12 samples.

Results

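The genes described here are the zebrafish intelectins itln1, itln2 and itln3 and the secretory-pathway gene agr2, chosen by their symbols, with earlier results of these data known, from an annotated expression table of 44667 genes and assembled loci. The 4 symbols matched 5 rows, because itln2 stands on 2 rows, and 2 of the 4 genes (itln3 and agr2) were expressed highly enough to be tested. RNA from whole wild-type zebrafish larvae, collected 4 days after fertilisation, was sequenced in 12 poly(A)-selected libraries. They formed 4 groups of 3: larvae in 20 mg/L PFOS (PFOS20, replicates 2, 3 and 4), in 20 mg/L OBS (OBS20, replicates 1, 2 and 3), in 30 mg/L OBS (OBS30, replicates 1, 3 and 4) and untreated larvae (control, replicates 2, 3 and 4). PFOS, the legacy compound, is a surfactant whose perfluoroalkyl chain ends in a sulfonate. OBS is its alternative, sodium p-perfluorous nonenoxybenzene sulfonate, and carries a perfluoroalkenyl chain that an oxygen joins to a benzenesulfonate. The series asks about tissue damage, oxidative stress and immune changes in developing fish.

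Intelectins are secreted, calcium-dependent lectins that bind sugars exposed on microbial surfaces. In mammals they are made by goblet cells and other cells of mucosal surfaces. The agr2 protein is a disulfide isomerase of the endoplasmic reticulum (ER). It is needed for mucin production in the mouse intestine and for the final differentiation of goblet cells in the zebrafish intestine.

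Expression was in TPM, a length-scaled share of a library, so levels of different genes can be set side by side. The number of reads behind the values is unknown. Differences between groups are given as differences of the mean log2(TPM + 1), each with its standard error (SE) from a limma fit of all 12 libraries, and this scale understates the change of genes at low TPM. Two-sided tests were made on 30674 genes and loci, and one of them was called where its p, adjusted over all of these by the Benjamini-Hochberg method, was below 0.05. Whether the replicates came from separate clutches or pools is not in the labels, so p-values measure only the spread between these samples. In whole larvae, fewer cells of a type and less RNA per cell cannot be told apart. Where libraries of different groups are said not to overlap, the share of all genes without overlap was not counted. Over all rows, the median TPM was lowest in OBS20 replicate 3, at 1.27, and highest in OBS30 replicate 3, at 2.33. Some, but not all, of the results that use OBS20 replicate 3 are also given without it. The larvae held RNA of liver and gut, with fabp10a of hepatocytes at 751 to 1531 TPM and vil1 of enterocytes at 56.5 to 103 TPM. Of the goblet cell markers, muc5.1 was at 9.35 to 49.5 TPM, muc5.2 at 2.99 to 36.6 TPM and muc5.3 at 6.0 to 24.9 TPM, and the regulator spdef at 0 to 1.1 TPM.

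The intelectin itln3 (ENSDARG00000003523) was lower in all 3 exposures than in control larvae. It stood at 1.66, 1.64 and 1.15 TPM in PFOS20, at 2.52, 2.67 and 1.5 TPM in OBS20, at 0.5, 0.37 and 0.69 TPM in OBS30, and at 13.44, 12.79 and 8.88 TPM in control. No exposed library reached the lowest control library. In order of level, control came first, then OBS20, PFOS20 and OBS30. OBS20 and PFOS20 overlapped, through OBS20 replicate 3, and the other neighbours in that order did not overlap. The group means were 1.48 ± 0.289 TPM in PFOS20, 2.23 ± 0.637 TPM in OBS20, 0.52 ± 0.161 TPM in OBS30 and 11.7 ± 2.47 TPM in control (SD, n = 3 each). Over all rows of the table, the itln3 mean was at the 45.7th percentile in PFOS20, the 52.3rd in OBS20, the 28.6th in OBS30 and the 82.4th in control.

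Against control, itln3 differed by -2.34 ± 0.21 (log2, SE) in PFOS20, and its mean TPM was 7.89-fold lower. This difference is a description with no test, since itln3 was among the genes already named for its fall in PFOS20 when the members were chosen. It was the 59th lowest of the 30674 differences in that comparison, a low rank that the choice of itln3 itself favoured. The rank is therefore no measure of how unusual the fall was. In PFOS20 against control 11.9% of genes and loci were called lower and 6.35% higher. The median of all genes was -0.13 in PFOS20 against control as scaled by the authors, which leaves -2.21 for itln3 relative to it. After median-of-ratios scaling, 50.1% of the calls in PFOS20 were higher, and 34.7% as scaled by the authors.

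**Figure D1:**
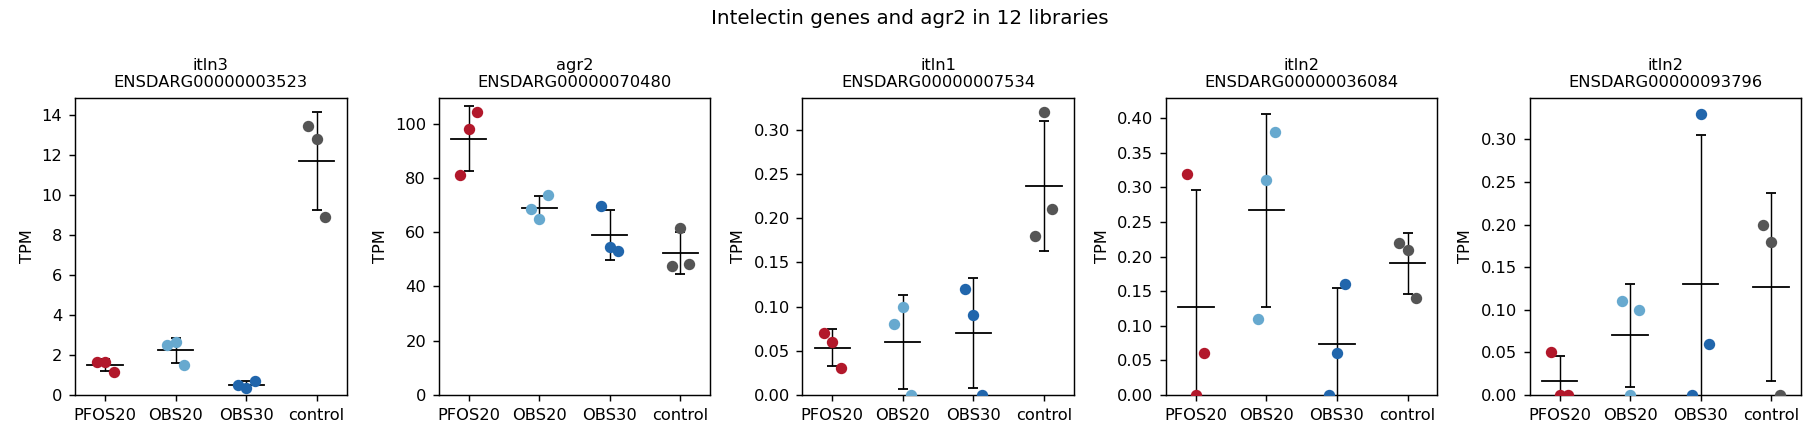
TPM of the 5 rows in PFOS20, OBS20, OBS30 and control larvae, 1 panel a row, each with its own vertical axis from 0. Points are libraries, horizontal lines are means and bars are the SD (n = 3). The 3 control points of itln3 lie at 8.88 TPM or above and all 9 exposed points at 2.67 TPM or below, whereas the PFOS20 points of agr2 are its highest.

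In OBS-exposed larvae itln3 fell. In OBS20 it changed by -1.98 ± 0.21 (95% interval -2.44 to -1.52, limma adjusted p = 0.00099), and its mean TPM was 5.25-fold lower. Without OBS20 replicate 3 the change was -1.8 (limma adjusted p = 0.0025). In OBS30 it changed by -3.05 ± 0.21 (95% interval -3.51 to -2.59, limma adjusted p = 1.6e-05), with a mean TPM 22.5-fold lower. This was the 10th lowest of all differences in OBS30. Of the 2 tested members, itln3 alone was called lower in OBS20 and in OBS30, where 0.805% and 3.7% of all genes and loci were called lower. The 3 comparisons with control share the control libraries, so their values for itln3 are not separate evidence. Since itln3 was chosen with its fall against these control libraries known, its p-values in OBS20 and OBS30 carry that choice too.

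At the higher OBS dose itln3 was lower still. It differed by -1.07 ± 0.21 in OBS30 against OBS20 (95% interval -1.53 to -0.61, limma adjusted p = 0.031), with 0.52 TPM in OBS30 and 2.23 TPM in OBS20, a 4.29-fold lower mean. Genes called lower made up 0.466% of all in that comparison, and genes called higher 1.11%. The difference kept its direction but lost its call without control replicate 3 (limma adjusted p = 0.054), PFOS20 replicate 3 (0.050), OBS20 replicate 1 (0.1), OBS20 replicate 2 (0.083), OBS30 replicate 1 (0.093), OBS30 replicate 3 (0.13) or OBS30 replicate 4 (0.081). In a fit of only the 6 libraries compared, the limma adjusted p was 0.18.

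PFOS and OBS were compared at the matched dose of 20 mg/L, the only such pair. The level of itln3 was 1.48 ± 0.289 TPM in PFOS20 and 2.23 ± 0.637 TPM in OBS20 (SD, n = 3 each). The difference of OBS20 against PFOS20 was 0.37 ± 0.21, with a 95% interval of -0.09 to 0.82 (limma adjusted p = 0.32), and the libraries overlapped. Without OBS20 replicate 3 it was 0.54 (limma adjusted p = 0.074). The interval includes no difference and also a level up to 0.82 higher in OBS20 on the log2 scale. In that comparison 5.85% of genes and loci were called higher in OBS20 and 3.92% lower.

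The itln1 row and both itln2 rows were near 0 in every group and were not tested. itln1 (ENSDARG00000007534) stood at 0.07, 0.06 and 0.03 TPM in PFOS20, at 0.08, 0.1 and 0 TPM in OBS20, at 0.12, 0.09 and 0 TPM in OBS30, and at 0.18, 0.32 and 0.21 TPM in control. Its 3 control libraries were the highest, at levels where 1 TPM in 3 libraries, the minimum for a test, was never approached. The itln2 row ENSDARG00000036084 stood at 0.32, 0 and 0.06 TPM in PFOS20, at 0.11, 0.31 and 0.38 TPM in OBS20, at 0, 0.06 and 0.16 TPM in OBS30, and at 0.22, 0.21 and 0.14 TPM in control. All of its groups overlapped. The second itln2 row, ENSDARG00000093796, was listed at 0 in 5 of the 12 libraries and reached at most 0.33 TPM, in OBS30 replicate 3.

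The table annotates 12 rows as intelectins, the 4 above and 8 without a member symbol. Among the 8, ENSDARG00000095082 and ENSDARG00000105598 carry the label ITLN1 (1 of many), which the exact match to itln1 left out. Near-identical intelectin copies can share reads, and how the authors assigned such reads to rows is not given in the sources used here, so the split between these rows is uncertain. The sum over the rows carries the same doubt, because TPM divides reads by the length of the row they are given to. Of the summed TPM of the 12 rows, itln3 held 15.9% to 24.9% in PFOS20, 33.0% to 57.5% in OBS20, 7.4% to 12.7% in OBS30 and 71.9% to 78.0% in control. The other 11 rows together held 5.02 to 6.1 TPM in PFOS20, 1.97 to 3.74 TPM in OBS20, 4.66 to 5.63 TPM in OBS30 and 3.47 to 4.91 TPM in control. The summed level of all 12 rows was lower in every exposed library than in every control library. Since itln3 held most of that sum in control, this is no separate observation from its own fall. The other 11 rows together were higher in every PFOS20 library than in every control library. In OBS20 and in OBS30 they overlapped control.

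**Figure D2:**
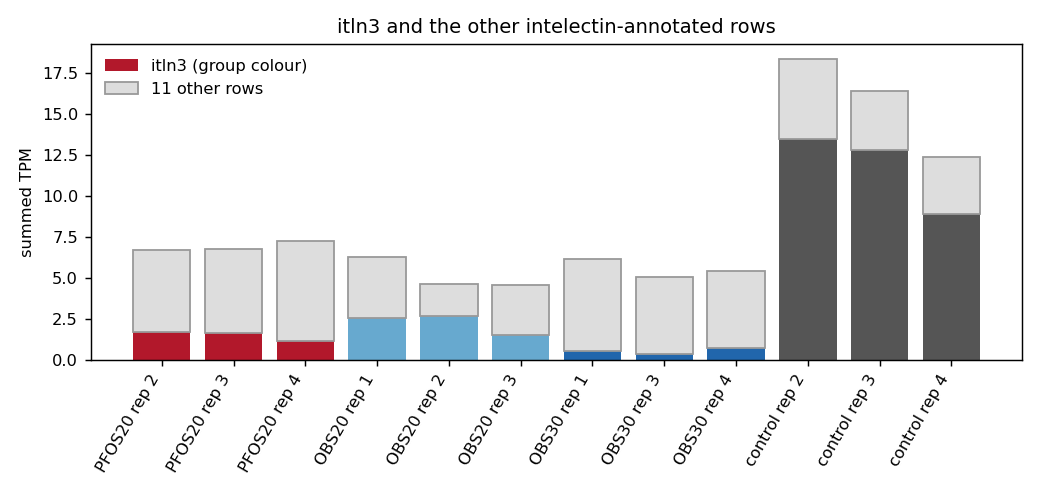
Summed TPM of the 12 rows annotated as intelectins in each library, grouped as PFOS20, OBS20, OBS30 and control. The coloured lower part of each bar is itln3 and the grey upper part is the other 11 rows. itln3 makes up 71.9% to 78.0% of the bar in control libraries and at most 57.5% in any exposed library.

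Apart from itln3, 2 intelectin rows without a member symbol were tested. ENSDARG00000095082, labelled ITLN1 (1 of many), averaged 0.867 TPM in PFOS20, 0.423 TPM in OBS20, 0.823 TPM in OBS30 and 0.8 TPM in control. It was called in none of the 5 comparisons (limma adjusted p = 0.36 to 0.98). An assembled locus annotated as intelectin-like, MSTRG.38326, averaged 2.36 ± 0.71 TPM in PFOS20, 0.667 ± 0.298 TPM in OBS20, 1.72 ± 0.554 TPM in OBS30 and 0.97 ± 0.219 TPM in control (SD, n = 3 each). It rose by 0.76 ± 0.23 in PFOS20 against control (limma adjusted p = 0.041). This call was lost without any one of 8 libraries, with adjusted p of up to 0.12, and with a pseudocount of 0.1 (0.055). In OBS20 against PFOS20 it was lower by a change of -1.01 ± 0.23 (limma adjusted p = 0.019), a call lost without PFOS20 replicate 4 (0.055) or OBS20 replicate 2 (0.061) and in those 6 libraries alone (0.1).

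In contrast to itln3, agr2 (ENSDARG00000070480) was an abundant transcript and was highest in PFOS20. It stood at 81.16, 98.03 and 104.31 TPM in PFOS20, at 68.76, 64.78 and 73.58 TPM in OBS20, at 69.73, 54.44 and 52.95 TPM in OBS30, and at 47.53, 61.41 and 48.2 TPM in control. Every PFOS20 library was above every other library, and every OBS20 library was above every control library. How many of all genes were separated in this way was not counted. OBS30 overlapped both OBS20 and control. The means were 94.5 ± 11.97 TPM in PFOS20, 69.0 ± 4.41 TPM in OBS20, 59.0 ± 9.29 TPM in OBS30 and 52.4 ± 7.83 TPM in control (SD, n = 3 each). They lay between the 95.9th percentile of all rows, in control, and the 97.7th, in PFOS20.

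Against control, agr2 differed by 0.84 ± 0.14 in PFOS20, a 1.80-fold higher mean. This is a description with no test, since the members were chosen with earlier results of these data known. In OBS20 the difference was 0.4 ± 0.14 (95% interval 0.09 to 0.71, limma adjusted p = 0.3). In OBS30 it was 0.17 ± 0.14 (95% interval -0.15 to 0.48, limma adjusted p = 0.57). Neither was called, beside 0.681% of genes and loci called higher in OBS20 and 4.73% in OBS30. At the matched dose, agr2 was 69.0 TPM in OBS20 and 94.5 TPM in PFOS20. The difference of -0.44 ± 0.14 (95% interval -0.76 to -0.13) missed the threshold over all genes (limma adjusted p = 0.079). The libraries did not overlap, but the share of all genes without overlap was not counted. Without OBS20 replicate 3 the difference was -0.49 (limma adjusted p = 0.055). Between the OBS doses agr2 differed by -0.23 ± 0.14 (OBS30 against OBS20, 95% interval -0.55 to 0.08, limma adjusted p = 0.54).

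Its relative agr1 (ENSDARG00000060682), of the same thioredoxin-fold family, had the clearer differences. It stood at 165.44, 178.07 and 173.96 TPM in PFOS20, at 129.99, 112.89 and 102.11 TPM in OBS20, at 150.86, 161.06 and 156.86 TPM in OBS30, and at 77.63, 72.36 and 82.91 TPM in control. The 4 groups did not overlap. It rose by 1.14 ± 0.09 in PFOS20 (limma adjusted p = 5.9e-05), by 0.56 ± 0.09 in OBS20 (limma adjusted p = 0.014) and by 1.0 ± 0.09 in OBS30 (limma adjusted p = 0.0001), all against control. The OBS20 call was lost without control replicate 2 (0.062), control replicate 3 (0.073) or OBS20 replicate 1 (0.054). It was also lost in a fit of only those 6 libraries (0.16) and with a block for replicate number (0.12). At the matched dose it was lower in OBS20 than in PFOS20 by a change of -0.59 ± 0.09 (95% interval -0.79 to -0.38, limma adjusted p = 0.0037), a call lost in a fit of only those 6 libraries (0.06). The third relative, txndc12, was called in none of the 5 comparisons and averaged 24.2 TPM in PFOS20, 21.4 TPM in OBS20, 21.1 TPM in OBS30 and 22.3 TPM in control.

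**Figure D3:**
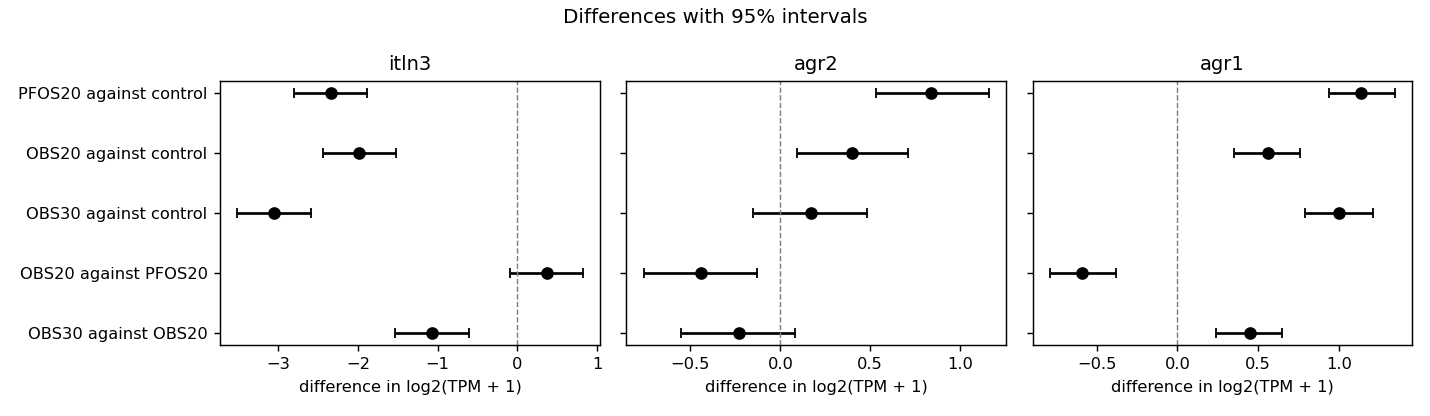
Differences in mean log2(TPM + 1) of itln3, agr2 and agr1 for the 5 comparisons, with 95% intervals from the limma fit of 12 libraries. A positive value means higher in the group named first. The intervals of itln3 and agr2 in PFOS20 against control are no test, since these genes were chosen with earlier results of these data known. itln3 lies left of 0 in all 3 exposures against control, and agr1 lies right of 0 in all 3.

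Few of the mucin and goblet cell genes were called in PFOS20 or OBS20 as scaled by the authors. More were called in PFOS20 under other scalings. Of 40 listed genes 27 were in the table and 20 were tested. In PFOS20 against control 1 was called higher and 1 lower, 5% each beside 6.35% and 11.9% of all genes. These became 6 higher and 0 lower after median-of-ratios scaling and also after quantile normalisation. Over all genes, the 5610 calls (34.7% of them higher) became 7167 (50.1%) and 7872 (48.3%) under these scalings, in that order. In OBS20 0 were called in either direction by limma (1 higher and 1 lower at an unadjusted p below 0.05). Of all genes, 0.681% were called higher in OBS20 and 0.805% lower. In OBS30 2 were called higher and 2 lower, 10% each beside 4.73% and 3.7% of all genes. Without OBS20 replicate 3 the PFOS20 counts were 4 higher and 1 lower, and without control replicate 2 only 1 was called higher in OBS30. Calls over all genes went from 5610 to 8713 and from 2584 to 1654 in these fits, in that order. Their median differences were 0.19 in PFOS20, -0.08 in OBS20 and 0.04 in OBS30, beside -0.13, -0.08 and 0.02 for all genes tested, and the PFOS20 median was 0.3 after median-of-ratios scaling. In OBS20 against PFOS20 1 was called lower (5%, beside 3.92% of all genes) and 0 higher (2 at an unadjusted p below 0.05 in limma). The 1 lower became 5 under either scaling, while the 2996 calls over all genes became 4570 after median-of-ratios scaling and 5051 after quantile normalisation. The summed TPM of the 27 genes was 242.8 to 295.4 in PFOS20, 208.5 to 278.6 in OBS20, 249.2 to 273.2 in OBS30 and 229.1 to 284.0 in control, and the 4 ranges overlapped.

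Among the gel-forming mucins, which make up the mucus itself, muc2.1 had no row under that symbol. The muc2.2 row reached at most 0.01 TPM and was not tested. The genes muc5.1, muc5.2 and muc5.3 were called in none of the 5 comparisons. Their libraries spread widely within some groups. The SD was largest in OBS20 for muc5.2 (16.39 TPM) and muc5.3 (7.606 TPM), and in control for muc5.1 (18.55 TPM). For muc5.2 the values were 11.83, 15.09 and 16.32 TPM in PFOS20, 9.67, 36.63 and 7.0 TPM in OBS20, 6.63, 2.99 and 9.21 TPM in OBS30, and 7.31, 9.28 and 4.93 TPM in control. In PFOS20 against control the muc5.2 difference was 0.94 ± 0.52 (95% interval -0.2 to 2.08, limma adjusted p = 0.24). It was called in a fit of only those 6 libraries (0.033). The libraries did not overlap, but the share of all genes without overlap was not counted. For muc5.3 the OBS30 libraries, at 6.0 to 8.42 TPM, lay below the control libraries, at 11.16 to 16.14 TPM. Its difference of -0.77 ± 0.35 (95% interval -1.55 to 0.01, limma adjusted p = 0.24) was likewise called in the 6 libraries alone (0.041).

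The membrane-bound mucin gene muc13b fell in OBS30. It stood at 20.96, 16.51 and 16.81 TPM in PFOS20, at 9.08, 13.81 and 9.28 TPM in OBS20, at 8.82, 7.79 and 7.17 TPM in OBS30, and at 19, 17.37 and 16.56 TPM in control. PFOS20 and control overlapped, and all OBS libraries were below both. Its change was -1.06 ± 0.16 in OBS30 against control (limma adjusted p = 0.0024) and -0.72 ± 0.16 in OBS20 against PFOS20 (limma adjusted p = 0.02). The call between the compounds was lost without PFOS20 replicate 2 (0.08), PFOS20 replicate 3 (0.051) or OBS20 replicate 1 (0.083), and in those 6 libraries alone (0.13). In OBS20 against control the difference of -0.69 ± 0.16 was not called (limma adjusted p = 0.079).

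The tight junction gene cldnh rose by 0.73 ± 0.13 in OBS30 (limma adjusted p = 0.0063), with 70.3 ± 8.48 TPM in OBS30 and 42.0 ± 3.44 TPM in control (SD, n = 3 each). This call was lost with a block for replicate number (0.069). The lipid transfer gene stard10 rose by 0.68 ± 0.14 in OBS30 (limma adjusted p = 0.012, 0.05 without control replicate 2 and 0.071 with that block). vwde, which encodes a protein with a von Willebrand factor type D domain, fell by 0.67 ± 0.11 in OBS30 (limma adjusted p = 0.0034). This call was lost after median-of-ratios scaling (0.068). In PFOS20 vwde was lower by a change of -0.45 ± 0.11 (limma adjusted p = 0.018), and that call was lost under the same scaling (0.4), after quantile normalisation (0.059) and without control replicate 3 (0.067) or PFOS20 replicate 3 (0.054). The transcription factor gene foxa1 rose by 0.51 ± 0.15 in PFOS20 (limma adjusted p = 0.038). Its call was lost without any one of 8 libraries (up to 0.14) and with a block for replicate number (0.098).

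**Figure D4:**
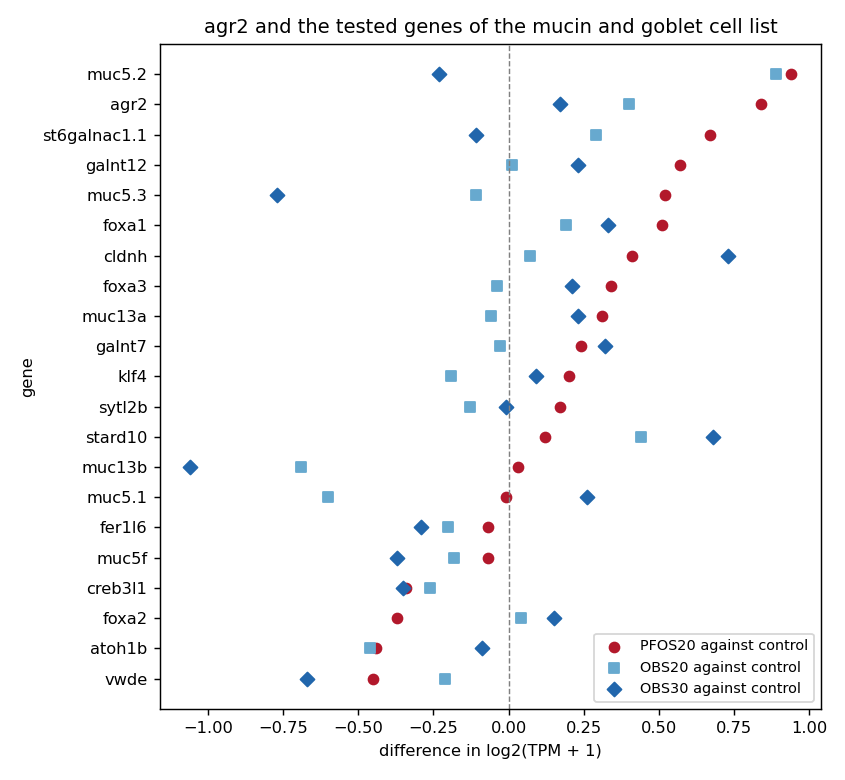
Differences in mean log2(TPM + 1) against control of agr2 and the 20 tested genes of the mucin and goblet cell list, sorted by the PFOS20 difference. Symbols mark PFOS20, OBS20 and OBS30. The points of the list lie on both sides of 0, and muc13b in OBS30, at -1.06, is the lowest point.

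Genes of protein folding and secretion in the ER, the compartment where agr2 works, rose in part in PFOS20. Of 54 tested genes 12 were called higher and 0 lower by limma (0 lower also at an unadjusted p below 0.05), with a median of 0.22 beside -0.13 for all genes. The share called higher was 22.2%, beside 6.35% of all genes, and the 12 became 27 after median-of-ratios scaling and 25 after quantile normalisation. Over all genes, the 5610 calls (34.7% of them higher) became 7167 (50.1%) and 7872 (48.3%) under these scalings, in that order. The 12 became 6 without control replicate 2 or control replicate 4 and 7 without PFOS20 replicate 2, PFOS20 replicate 4, OBS20 replicate 1, OBS30 replicate 1 or OBS30 replicate 4. They became 19 without OBS20 replicate 3, where calls over all genes rose to 8713. The ER chaperone gene hspa5 averaged 174 ± 4.87 TPM in PFOS20, 79.6 ± 3.82 TPM in OBS20 and 71.5 ± 3.06 TPM in control (SD, n = 3 each). It rose by 1.27 ± 0.07 in PFOS20 (limma adjusted p = 7.8e-06). The co-chaperone gene dnajb9b rose by 1.8 ± 0.24 in PFOS20 (limma adjusted p = 0.00087).

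In OBS20 and in OBS30 against control a single gene of the 54 was called, agr1. The share called higher was 1.85% in both, beside 0.681% of all genes in OBS20 and 4.73% in OBS30. In OBS30 the 1 called higher became 5, with 2 called lower, without OBS20 replicate 3, and at an unadjusted p below 0.05 limma had 10 lower. Median-of-ratios scaling gave 3 higher and 2 lower in OBS30, and quantile normalisation 5 and 8. Over all genes, the 2584 OBS30 calls became 3044 and 3931 under these scalings and 3969 without OBS20 replicate 3. In OBS20 against PFOS20 0 of the 54 were called higher by limma (2 at an unadjusted p below 0.05) and 8 lower. The share called lower was 14.8%, beside 3.92% of all genes. The 8 became 14 after median-of-ratios scaling, 17 after quantile normalisation and 3 to 5 without any one of 11 libraries, all but OBS20 replicate 3. Over all genes, the 2996 calls (59.9% of them higher) became 4570 (52.5%) and 5051 (56.1%) under these scalings, in that order. hspa5 differed by -1.12 ± 0.07 (limma adjusted p = 3.6e-05) and dnajb9b by -2.01 ± 0.24 (limma adjusted p = 0.0008) in OBS20 against PFOS20.

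Genes of the soluble lectin and mucosal defence list, which also holds genes that are not lectins, such as cd36 and grn1, were called in both directions. Of 37 tested, 5 were higher and 5 lower in PFOS20, 1 higher and 4 lower in OBS20, and 2 higher and 10 lower in OBS30, all against control. The share called lower was 13.5% in PFOS20, near the 11.9% of all genes, 10.8% in OBS20 beside 0.805%, and 27% in OBS30 beside 3.7%. The share called higher was 13.5% in PFOS20 beside 6.35%, 2.7% in OBS20 beside 0.681%, and 5.41% in OBS30 beside 4.73%. The medians were -0.04, -0.32 and -0.07, beside -0.13, -0.08 and 0.02 for all genes. The 5 lower in PFOS20 became 3 after median-of-ratios scaling, 2 without any one control library or PFOS20 replicate 2 and 3 without PFOS20 replicate 3. The 4 lower in OBS20 became 0 without control replicate 2 or OBS20 replicate 1, 1 without control replicate 3 and 2 without control replicate 4 or OBS20 replicate 2. The 10 lower in OBS30 were 9 or 10 without any one library. The 1 higher in OBS20 became 0 without any one control library or OBS20 replicate 1, and the 2 higher in OBS30 became 1 without any one of 10 libraries, all but OBS20 replicate 2 and OBS20 replicate 3.

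The galectin gene lgals1l1 rose by 2.75 ± 0.22 in PFOS20 (limma adjusted p = 5.8e-05), with 630 ± 219 TPM in PFOS20 and 89.4 ± 7.71 TPM in control (SD, n = 3 each). In OBS30 it rose by 1.93 ± 0.22 (limma adjusted p = 0.00042), to 345 ± 50.9 TPM. In OBS20 lgals1l1 rose by 1.19 ± 0.22 (limma adjusted p = 0.026), to 207 ± 34.4 TPM. This OBS20 call was lost after median-of-ratios scaling (0.057) and with a block for replicate number (0.096). It was also lost without any one control library (up to 0.11), OBS20 replicate 1 (0.084) or OBS20 replicate 3 (0.072). In OBS20 against PFOS20 lgals1l1 differed by -1.55 ± 0.22 (limma adjusted p = 0.0022). The mannose-binding lectin gene mbl2, whose product starts the lectin pathway of complement, fell by 2.4 ± 0.26 in OBS30 (limma adjusted p = 0.00026), with 2.38 ± 1.31 TPM in OBS30 and 16.2 ± 2.29 TPM in control (SD, n = 3 each). In OBS20 mbl2 changed by -1.22 ± 0.26 (limma adjusted p = 0.048). That call was lost after median-of-ratios scaling (0.14) and quantile normalisation (0.13), with a pseudocount of 0.1 (0.091) and with no filter (0.069). A block for replicate number (0.087) and a fit of only the 6 libraries compared (0.076) lost it too. So did leaving out any one control, PFOS20 or OBS20 library (up to 0.17) or OBS30 replicate 3 (0.071). The pentraxin gene crp2, related to C-reactive protein, fell by 2.35 ± 0.36 in OBS30 (limma adjusted p = 0.0021). In PFOS20 the lysozyme gene lyz fell by 1.16 ± 0.32 (limma adjusted p = 0.029), a call lost after median-of-ratios scaling (0.074) and without control replicate 2 (0.097), control replicate 4 (0.087) or PFOS20 replicate 2 (0.1).

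Part of the hepatocyte markers fell in all 3 exposures, in which itln3 was lower, and part of the enterocyte markers fell in OBS20 and OBS30. In PFOS20 the share of enterocyte markers called lower was near that of all genes. Of 25 tested hepatocyte genes 3 were called higher and 11 lower in PFOS20, 0 higher and 13 lower in OBS20, and 2 higher and 17 lower in OBS30, with medians of -0.39, -0.78 and -1.04, beside -0.13, -0.08 and 0.02 for all genes. The share called lower was 44% in PFOS20 beside 11.9% of all genes, 52% in OBS20 beside 0.805%, and 68% in OBS30 beside 3.7%. The 13 lower in OBS20 became 8 after median-of-ratios scaling. At an unadjusted p below 0.05 limma had 2 hepatocyte genes higher in OBS20. The 11 became 7 and 6 and the 13 became 7 and 7 without control replicate 2 and control replicate 3, in that order. The summed TPM of the 26 hepatocyte genes in the table was 6266 to 6347 in PFOS20, 6016 to 6104 in OBS20, 4860 to 5618 in OBS30 and 7476 to 8804 in control. Of 41 tested genes of the enterocyte list 2 were higher and 6 lower in PFOS20, 1 higher and 8 lower in OBS20, and 2 higher and 23 lower in OBS30, with medians of -0.24, -0.37 and -0.73. The 2 higher were gcga and cbr1l, both in PFOS20 and in OBS30. gcga encodes proglucagon, a hormone precursor, so the list is not limited to enterocyte markers. The share called lower was 14.6% in PFOS20, near the 11.9% of all genes, 19.5% in OBS20 beside 0.805%, and 56.1% in OBS30 beside 3.7%. After median-of-ratios scaling 3 were higher and 4 lower in PFOS20, with a median of -0.08 beside 0.003 for all genes. The 2 higher in PFOS20 became 4 without control replicate 2 and 1 without control replicate 3, control replicate 4, PFOS20 replicate 3 or PFOS20 replicate 4, and the 2 higher in OBS30 became 1 without control replicate 3, control replicate 4, OBS30 replicate 1 or OBS30 replicate 3. The 6 lower in PFOS20 became 3 without control replicate 2. The 8 lower in OBS20 became 5 without control replicate 2 and 4 without OBS20 replicate 1, and the 23 lower in OBS30 became 15 without OBS30 replicate 3 or OBS30 replicate 4. Their 43 genes summed to 5095 to 5799 TPM in PFOS20, 3993 to 4895 TPM in OBS20, 2962 to 3681 TPM in OBS30 and 4894 to 6747 TPM in control. The part of these organs in the itln3 difference was not tested.

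Genes listed for the other cell types followed other patterns. Their medians stand beside -0.13, -0.08 and 0.02 for all genes in PFOS20, OBS20 and OBS30. Of 31 epidermal genes 7 were higher and 9 lower in PFOS20, 2 higher and 1 lower in OBS20, and 8 higher and 8 lower in OBS30, with medians of -0.08, 0.14 and 0.22. The shares were 22.6% and 29% in PFOS20 beside 6.35% and 11.9% of all genes, 6.45% and 3.23% in OBS20 beside 0.681% and 0.805%, and 25.8% and 25.8% in OBS30 beside 4.73% and 3.7%. After median-of-ratios scaling the PFOS20 median was 0.09, and 4 were lower in PFOS20 and 3 in OBS30. The 2 higher in OBS20 became 1 without control replicate 2, control replicate 3 or OBS20 replicate 1 and 4 without OBS20 replicate 3, the 1 lower became 2 without PFOS20 replicate 2 or PFOS20 replicate 4, and the 8 lower in OBS30 became 5 without control replicate 3. Their 31 genes summed to 7874 to 8904 TPM in PFOS20, 11410 to 12970 TPM in OBS20, 8690 to 9760 TPM in OBS30 and 11490 to 12410 TPM in control. Of 19 exocrine pancreas genes 0 were higher and 12 lower in PFOS20, 0 were called in either direction in OBS20, and 0 were higher and 7 lower in OBS30, with medians of -0.83, 0.08 and -0.48. The share called lower was 63.2% in PFOS20 beside 11.9% of all genes, and 36.8% in OBS30 beside 3.7%. At an unadjusted p below 0.05 limma had 2 higher and 6 lower in OBS20, and 0 higher in PFOS20 and in OBS30. Without PFOS20 replicate 2, 1 was called lower in OBS20. Of 13 neutrophil and macrophage genes 6 were higher and 2 lower in PFOS20, 0 were called in either direction in OBS20, and 4 were higher and 0 lower in OBS30, with medians of 0.54, 0.08 and 0.28. The higher ones included the inflammatory genes il1b and mmp9 in PFOS20, and mmp13a and mmp9 in OBS30. The 2 lower in PFOS20 were lyz and cpa5, and cpa5 also served here as an exocrine pancreas marker. The share called higher was 46.2% in PFOS20 beside 6.35% of all genes, and 30.8% in OBS30 beside 4.73%. The 2 lower in PFOS20, 15.4% beside 11.9% of all genes, became 0 after median-of-ratios scaling. At an unadjusted p below 0.05 limma had 3 higher and 0 lower in OBS20 and 1 lower in OBS30. The 2 lower in PFOS20 became 0 without control replicate 2 or PFOS20 replicate 2 and 1 without control replicate 4 or PFOS20 replicate 3. Of 4 defining leukocyte markers, mpx was at 2.71 to 8.06 TPM and lyz at 18.1 to 76.2 TPM, and mpeg1.1 and coro1a were at 0 in some libraries. The part of these cell types in the agr2 values was not tested.

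The genes whose levels followed itln3 most closely over the 12 libraries were ephx5, which encodes an epoxide hydrolase, fetub, which encodes a fetuin secreted by the liver, and fads2, which encodes a fatty acid desaturase. They had the highest Pearson correlations of log2(TPM + 1) with itln3 among 11564 candidates, genes with a symbol and a mean of at least 5 TPM. The correlations were 0.983 for ephx5, 0.983 for fetub and 0.978 for fads2. After the group means were subtracted they were 0.75, 0.781 and 0.277. All libraries enter each of them, and depth is unknown. fetub stood at 47.3, 42.56 and 41.65 TPM in PFOS20, at 65.23, 62.36 and 55.52 TPM in OBS20, at 37.53, 39.43 and 39.16 TPM in OBS30, and at 215.11, 182.1 and 161.18 TPM in control, the same order of groups as for itln3. Since fetub was picked for its likeness to itln3 over these libraries, the shared order is no separate observation.

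For agr2 the closest genes were npffl, which encodes a neuropeptide, cox5aa, a subunit of mitochondrial cytochrome c oxidase, and idh2, the mitochondrial isocitrate dehydrogenase. Their correlations were 0.925, 0.922 and 0.913, and 0.598, 0.842 and 0.59 after the group means were subtracted. npffl averaged 15.8 ± 4.26 TPM in PFOS20, 9.47 ± 0.488 TPM in OBS20, 8.32 ± 0.592 TPM in OBS30 and 6.23 ± 1.02 TPM in control (SD, n = 3 each). itln3 and agr2 themselves had a correlation of -0.437 over the libraries, and -0.186 after the group means were subtracted.

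**Figure D5:**
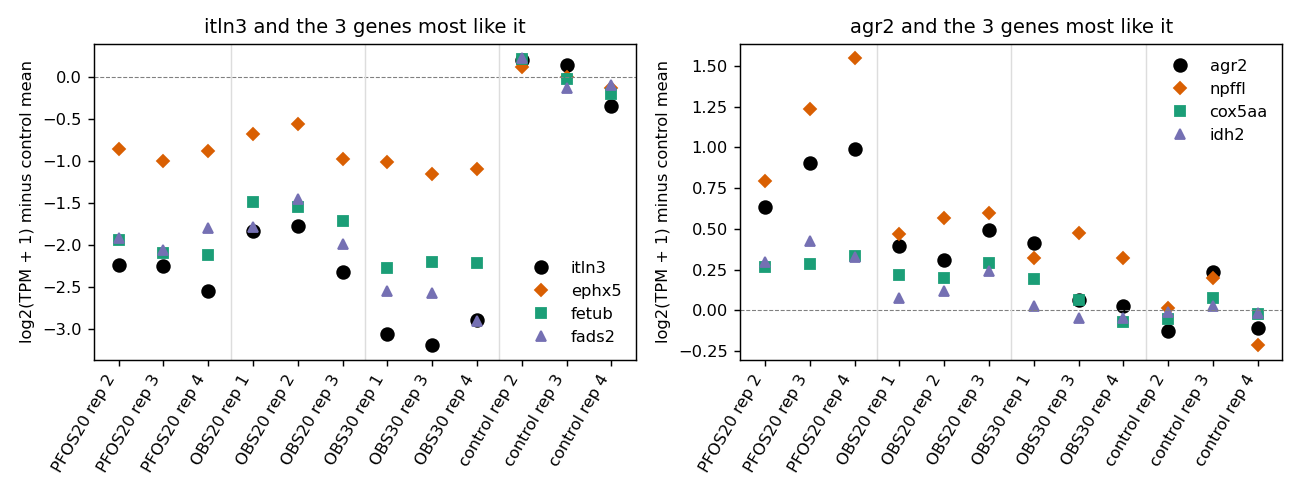
log2(TPM + 1) minus the control mean in each of the 12 libraries, grouped as PFOS20, OBS20, OBS30 and control, for itln3 (left) and agr2 (right), each with the 3 genes of highest correlation. On the left all 9 exposed libraries lie below the control libraries for every gene. On the right agr2, npffl, cox5aa and idh2 all have their highest library in PFOS20. The genes were picked by their correlation over these libraries, so these likenesses are no separate observation.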

How the data were processed

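Per the labels' protocols, poly(A) RNA was fragmented and sequenced as paired reads. The authors deposited TPM values for 44667 rows (32520 Ensembl genes and 12147 assembled loci). Per the submitters' processing notes HISAT2, StringTie, RSEM and GRCz11 were used, with no version or role given. TPM keeps no read count, so how deeply each library was read is unknown, counting intervals cannot be given, and precision comes from the spread between 3 libraries. The authors also deposited group means, which differed from those computed here by at most 3.33e-05 TPM and were left unused.

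The 30674 rows that reached 1 TPM in 3 or more libraries were tested on log2(TPM + 1) with limma 3.58.1 (R 4.3.3), a group means model with a mean-variance trend, in 5 comparisons. The procedure was also run on simulated data, with normal noise and changes placed in OBS30 only. Differences in depth or scaling were not simulated, so that run does not speak to them. Alternatives were a pseudocount of 0.1, no filter, a filter on a mean of 5 TPM or more, median-of-ratios scaling, quantile normalisation, a replicate block, the 6 libraries compared alone and fits that each left out 1 library. The members and the 8 gene lists were chosen with earlier results of these data known. The lists were mucin and goblet cell, ER folding and secretion, soluble lectin and mucosal defence, hepatocyte, enterocyte, epidermis, exocrine pancreas, and neutrophil and macrophage genes; agr1 is in the ER and epidermis lists and lyz in the lectin and leukocyte lists. Symbols were matched in the table regardless of case. Named genes were all member rows, the 3 genes most correlated with each tested member, and from each list at most 2 called genes per direction with the largest change, no overlap between groups and 5 TPM or more on average in the higher one; some of these are given by count only, and txndc12 and the gel-forming mucins were added to them. No positions are given, because the table has none.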

Additional observations from a re-analysis of the deposited data

How the results depend on the processing

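The direction of itln3 and agr2 held in all 5 comparisons under every alternative that gave a value; a mean of at least 5 TPM gave none for itln3. With a pseudocount of 0.1, itln3 in PFOS20 against control was -2.89, since a smaller pseudocount widens differences at low TPM. In OBS30 against control it was -4.26 to -3.01 over the alternatives that kept all libraries of the groups compared. Without any one library it was -2.51 to -2.24 in PFOS20, -2.15 to -1.8 in OBS20 and -3.22 to -2.95 in OBS30, called in OBS20 and OBS30 each time. In OBS30 against OBS20, itln3 was -0.96 with the replicate block and -1.07 in the 6 libraries alone (limma adjusted p = 0.18 in both), -1.25 to -0.97 without any one library and -1.9 with a pseudocount of 0.1 (limma adjusted p = 0.014). agr2 was called in no OBS comparison under any alternative (limma adjusted p from 0.053 up).

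Counts of called genes depended more on the setting, and the cause was not tested. For PFOS20 against control 5610 genes were called, 3634 with the block and 3066 to 8713 without any one library. For OBS20 against control 456 were called, 136 with the block, 109 in the 6 libraries alone and 230 to 504 without any one library. For OBS30 against control 2584 were called, 3931 after quantile normalisation, 1150 with the block and 1497 to 3969 without any one library. For OBS20 against PFOS20 2996 were called, 4570 after median-of-ratios scaling, 5051 after quantile normalisation, 1389 with the block, 576 in the 6 libraries alone and 1366 to 6506 without any one library. For OBS30 against OBS20 484 were called, 803 after quantile normalisation, 133 with the block, 88 in the 6 libraries alone and 138 to 427 without any one library. Quantile normalisation moved the share of calls that were higher to 48.3% from 34.7% in PFOS20 against control, to 57.7% from 45.8% in OBS20 against control and to 56.0% from 70.5% in OBS30 against OBS20. Of 960 list counts without any one library, 159 moved by over 1.5 times.

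Over 13 same-numbered pairs of libraries the correlation of deviations from the group means was -0.115 to 0.101. Over 41 pairs of other numbers it was -0.186 to 0.25. These correlations are over all tested genes, so they cannot settle whether libraries of the same number share a batch for single genes such as itln3. The unknown depth limits what can be said of itln1 and both itln2 rows. It also limits the fold changes of itln3 in OBS30, where its libraries were at 0.37 to 0.69 TPM.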
